A study of Mus musculus with 12 samples.

Results

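The genes described here are regulators and markers of the epithelial-mesenchymal transition, chosen by name: Vim, Fn1, Zeb1, Zeb2, Snai1, Snai2, Twist1 and Cdh2. Of the 8 names, 7 had a row among the 29937 genes of the deposited table, and Snai2 was not analysed here. RNA was sequenced from 4T1 cells, a mouse mammary carcinoma line grown adherent and labelled wild type, in 4 groups of 3 libraries. The groups were PBS, whose treatment label reads DMSO and which served as the control, APAP, Oxa and OAP2, each named after its treatment label. Doses, treatment times and what OAP2 stands for do not appear in the labels. The labels describe a cell line, whereas the series design text speaks of a xenograft derived from cells. Nothing in the labels says whether the 3 libraries of a group came from separate cultures, so the p-values below measure the spread between these libraries, which may be technical. The design sets OAP2 against the other treatments, and all 6 pairs of groups were compared.

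In the epithelial-mesenchymal transition, carcinoma cells loosen their cell junctions and gain migratory and matrix-forming properties. It is driven by transcription factors that bind E-box sequences and repress epithelial genes such as Cdh1: the zinc finger factors Snai1 and Snai2, the zinc finger and homeodomain factors Zeb1 and Zeb2, and the basic helix-loop-helix factor Twist1. Vim, the intermediate filament protein vimentin, Fn1, the matrix glycoprotein fibronectin, and Cdh2, or N-cadherin, are the usual markers of its outcome. 4T1 cells metastasise in mice while keeping much of their epithelial character, and Twist1 is a known metastasis regulator in this line.

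The promoters of Vim and Snai1 are shown because Vim was the member that differed most between groups and because Snai1 is known to act on E-boxes, its own included. Each is the 250 bases before the RefSeq start of transcription, 5′ to 3′ on the gene's strand, on GRCm38.p6, with any E-box in capitals. The Vim window lies inside the gene as placed in the deposited data, which begins at 13573927, so it is upstream of the RefSeq start only.
Vim, chr2:13574061-13574310, plus strand: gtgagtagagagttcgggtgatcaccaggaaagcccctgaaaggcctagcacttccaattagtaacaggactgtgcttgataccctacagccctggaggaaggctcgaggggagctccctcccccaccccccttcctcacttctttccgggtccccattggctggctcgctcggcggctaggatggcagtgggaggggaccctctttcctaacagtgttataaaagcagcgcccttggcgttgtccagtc
Snai1, chr2:167537945-167538194, plus strand: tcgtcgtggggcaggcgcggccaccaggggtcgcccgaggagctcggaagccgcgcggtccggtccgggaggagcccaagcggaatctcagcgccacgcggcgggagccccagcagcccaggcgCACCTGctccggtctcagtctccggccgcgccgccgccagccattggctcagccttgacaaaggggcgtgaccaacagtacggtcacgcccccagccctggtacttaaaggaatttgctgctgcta

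Promoters were listed for 4 of the 8 members, 7 sequences in all, since Zeb2 had several starts. The E-box was searched as CANNTG, which reads the same on both strands and holds the narrower form CAGGTG or CACCTG. The Snai1 window held 1 E-box, CACCTG, beginning 126 bases before the start. The windows of Vim, Twist1 and Zeb2 held 0. Of 32851 RefSeq windows of the same length, 66.2% held CANNTG and 17.2% held CAGGTG or CACCTG. A match describes these letters and not a bound site.

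Levels are given in FPKM, which the authors scaled to transcript length and library size, so that genes can be compared with each other. Library totals lay between 64071751 and 71500487 counts. Epithelial markers (Epcam, Cdh1, Krt7, Krt8, Krt18 and Krt19) were present in all libraries, with a summed level of 852 to 1293 FPKM. The 7 fibroblast markers found in the table summed to at most 2.56 FPKM in any library, and the 4 endothelial markers found to at most 0.1. The highest fibroblast sum was that of PBS 2. It held 0.46 FPKM of Col1a2, 0.25 of Col3a1, 0.51 of Lum and 0.16 of Dcn, each at most 0.02 in the other libraries. The library PBS 2 stood apart: its 6 red blood cell markers summed to 231 FPKM and its 6 neutrophil markers to 64.2, against at most 0.37 and 0.54 in the other libraries. Its quality weight in limma, a measure of how closely a library follows its group, was the lowest at 0.131, followed by OAP2 3 with 0.239, where the other libraries had 0.879 or more. Values without these libraries are therefore given where they matter.

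Vim and Fn1 were the abundant members, and the order of the groups differed between them. PBS and APAP were not separated by the test in either gene. By group mean, Oxa held the highest Vim, OAP2 the lowest Fn1, APAP the lowest Vim and PBS the highest Fn1. Fn1 ranged from 152 to 371 FPKM and ranked between 61st and 236th of all genes. Vim ranged from 37.5 to 114 FPKM, Snai1 from 3.61 to 6.62, Twist1 from 1.48 to 3.58 and Zeb2 from 0.98 to 1.51. Zeb1 stayed at or below 0.04 FPKM and Cdh2 at or below 0.01. Transcripts of both matrix and filament markers thus stood above those of every transcription factor, and N-cadherin was near 0.

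**Figure D1:**
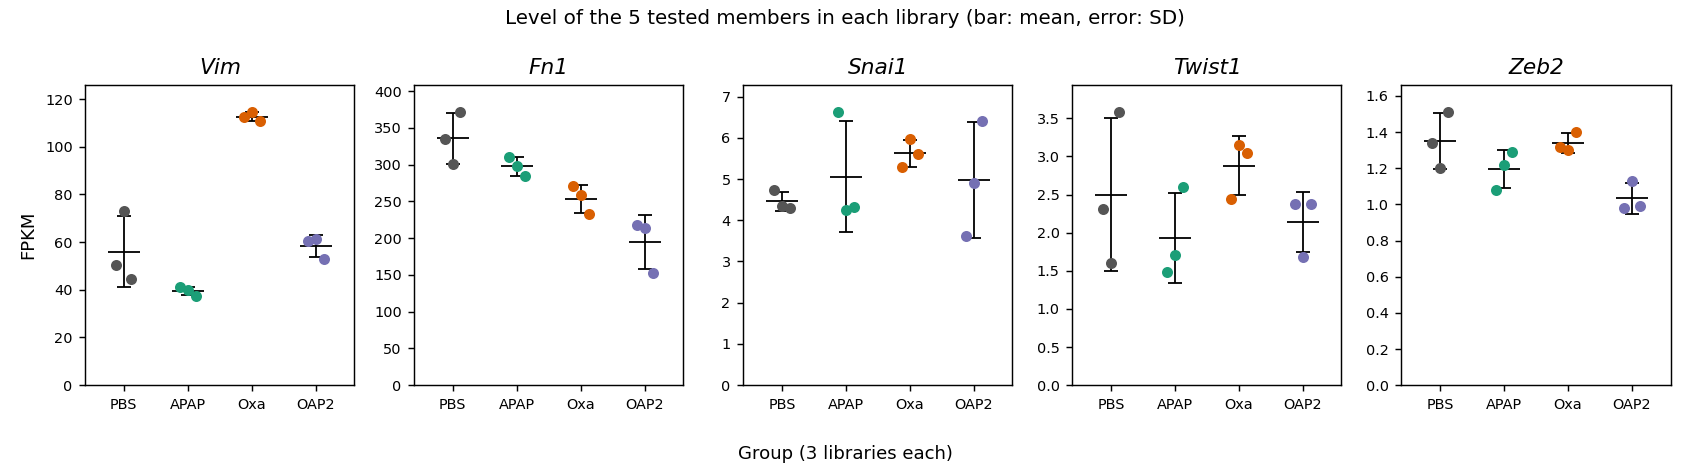
FPKM of Vim, Fn1, Snai1, Twist1 and Zeb2 in PBS, APAP, Oxa and OAP2; each dot is a library, the horizontal bar the mean and the error bar the SD of 3 libraries. The Oxa libraries lie at 111 to 114 FPKM for Vim, above all others, and the OAP2 libraries lie lowest for Fn1.

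Vim (chromosome 2, 13573927 to 13582826, plus strand, GRCm38) stood at 113, 114 and 111 FPKM in Oxa 1 to 3. In PBS 1 to 3 it stood at 50.2, 72.9 and 44.7 FPKM. The OAP2 libraries had 60.4, 61.4 and 53.1 FPKM and the APAP libraries 41.1, 39.8 and 37.5. All Oxa libraries lay above the 9 others, and the APAP libraries lay below all others, with PBS and OAP2 between them and overlapping. PBS 2, the library with blood cell transcripts, had the highest Vim outside Oxa.

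Vim rose in Oxa against PBS from 55.9 ± 14.9 to 113 ± 1.82 FPKM (SD, n = 3 libraries per group), by 1.02 ± 0.15 on the log2 scale (± SE; 95% interval 0.69 to 1.34; edgeR quasi-likelihood test, Benjamini-Hochberg adjusted p = 0.00302). It was the 1 member called of 5 tested, where 10.1% of 12036 genes were called, at an adjusted p below 0.05. Without PBS 2 the rise was 1.25 (adjusted p = 2.52e-05 in edgeR). Vim is also expressed by white blood cells, and the part of such cells in the level of PBS 2 was not tested. In bulk RNA of this kind, fewer cells of a type and less RNA per cell cannot be told apart.

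Vim was lower in OAP2 than in Oxa, 58.3 ± 4.56 against 113 ± 1.82 FPKM, by -0.95 ± 0.15 (95% interval -1.27 to -0.62; edgeR adjusted p = 0.00189). It was higher in Oxa than in APAP, which had 39.5 ± 1.85 FPKM, by 1.48 ± 0.15 (1.15 to 1.81; edgeR adjusted p = 0.000315), a 2.79-fold difference. These calls for Vim held under all 24 alternatives, with log2 differences of -0.99 to -0.88 and of 1.43 to 1.52. Background rates were 12.9% called for OAP2 against Oxa and 15.4% for Oxa against APAP.

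The other Vim differences did not pass. OAP2 against PBS gave 0.070 ± 0.15 (-0.25 to 0.39; edgeR adjusted p = 0.857), 0.31 without PBS 2 (adjusted p = 0.0562) and 0.37 without PBS 2 and OAP2 3 (adjusted p = 0.0106). APAP against PBS gave -0.46 ± 0.15 (-0.79 to -0.14; adjusted p = 0.397), and -0.23 without PBS 2. OAP2 against APAP gave 0.53 ± 0.15 (0.21 to 0.86; adjusted p = 0.127), and was called without PBS 2 at the same size (adjusted p = 0.00686). The order of Vim levels was therefore Oxa, OAP2, PBS and APAP, in which Oxa was separated from its neighbour by the test and the lower 3 were not separated step by step.

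Fn1 (chromosome 1, 71585520 to 71653175, minus strand, 16 transcripts) showed another order. It stood at 335, 301 and 371 FPKM in PBS 1 to 3 and at 310, 298 and 285 in APAP 1 to 3. The Oxa libraries had 270, 258 and 232 FPKM and the OAP2 libraries 218, 214 and 152. PBS and APAP overlapped, all Oxa libraries lay below both, and all OAP2 libraries lay below Oxa. The lowest of all was OAP2 3, one of the libraries that stand apart.

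Fn1 fell in OAP2 against PBS from 336 ± 35.2 to 195 ± 36.9 FPKM, by -0.77 ± 0.13 (95% interval -1.06 to -0.49; edgeR adjusted p = 0.00607), a 1.71-fold decrease. It was the 1 member called of 5 tested, where 5.25% of all tested genes were called. Without OAP2 3 the difference was -0.62 (adjusted p = 0.00441) and without PBS 2 it was -0.84 (adjusted p = 0.00165). A fit of the 6 libraries alone gave -0.77 with an adjusted p of 0.109, which ends the call.

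Fn1 had negative values in the other 5 comparisons and none passed in edgeR. Oxa against PBS gave -0.39 ± 0.13 (-0.68 to -0.11; edgeR adjusted p = 0.0747), and was called without PBS 2 (-0.46, adjusted p = 0.0275) and without OAP2 3 (-0.39, adjusted p = 0.0129). OAP2 against Oxa gave -0.38 ± 0.13 (-0.67 to -0.09; adjusted p = 0.0787), with -0.23 without OAP2 3 (adjusted p = 0.15) and a call without PBS 2 (-0.38, adjusted p = 0.0466). OAP2 against APAP gave -0.64 ± 0.13 (-0.93 to -0.36; adjusted p = 0.06), and was called without OAP2 3 (-0.49, adjusted p = 0.0428) and without PBS 2 (-0.64, adjusted p = 0.0114). APAP against PBS gave -0.13 ± 0.13 (-0.42 to 0.16; adjusted p = 0.792) and Oxa against APAP -0.26 ± 0.13 (-0.55 to 0.02; adjusted p = 0.194). The comparisons with PBS share their control libraries and are set side by side as values.

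**Figure D2:**
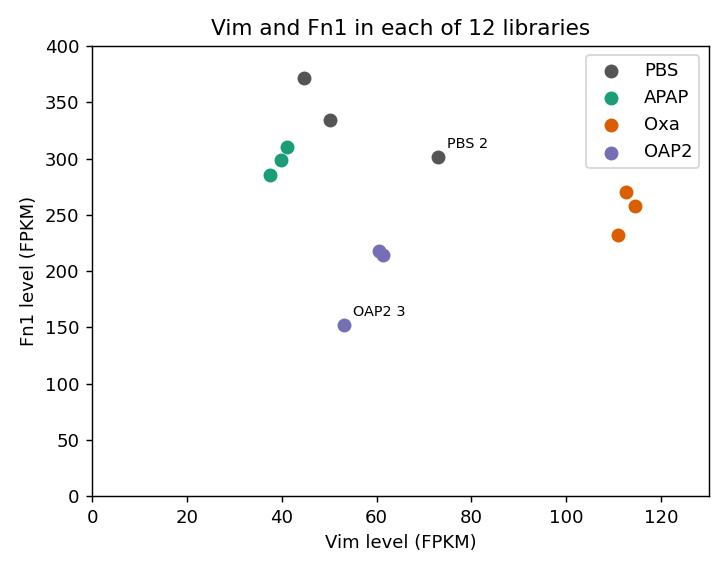
Fn1 level against Vim level, both in FPKM, in the 12 libraries, coloured by group; PBS 2 and OAP2 3 are named. Oxa lies to the right at 111 to 114 FPKM of Vim, OAP2 lies lowest in Fn1, and PBS 2 lies to the right of the other PBS libraries.

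The level of Vim as a percentage of Fn1, both in FPKM, put the groups into separate ranges except for PBS and APAP. It was 41.6, 44.4 and 47.7% in Oxa 1 to 3 and 27.8, 28.7 and 34.9% in OAP2 1 to 3. In PBS 1 to 3 it was 15.0, 24.2 and 12.04%, and in APAP 1 to 3 it was 13.3, 13.3 and 13.2%. Oxa and OAP2 both lay above all PBS and APAP libraries. In Oxa the Vim level was higher than in PBS. Fn1 was also lower in every Oxa library than in PBS, a difference not called on all libraries (-0.39, edgeR adjusted p = 0.0747). In OAP2 the Fn1 level was lower than in PBS. The Vim ranges of OAP2 and PBS overlapped through PBS 2 only, at 72.9 FPKM. PBS 1 and PBS 3, at 50.2 and 44.7 FPKM, lay below all OAP2 libraries.

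Of the transcription factors, Zeb2 was called in 1 comparison and Snai1 and Twist1 in 0. Snai1 (chromosome 2, 167538195 to 167542814, plus strand) stood at 4.73, 4.34 and 4.30 FPKM in PBS 1 to 3 and at 5.29, 5.96 and 5.61 in Oxa 1 to 3. It stood at 6.62, 4.25 and 4.31 in APAP 1 to 3 and at 3.61, 4.91 and 6.41 in OAP2 1 to 3. Oxa lay above PBS in every library, while APAP and OAP2 spanned nearly the whole range of the gene. Snai1 was called in 0 of 6 comparisons by edgeR and by no alternative, and its smallest unadjusted p was 0.154. Oxa against PBS gave 0.34 ± 0.23 (95% interval -0.15 to 0.83; edgeR adjusted p = 0.362), and the others lay between -0.17 and 0.22.

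Twist1 (chromosome 12, 33957671 to 33959829, plus strand) stood at 2.31, 1.60 and 3.58 FPKM in PBS 1 to 3 and at 2.44, 3.15 and 3.05 in Oxa 1 to 3. The APAP libraries had 1.48, 1.71 and 2.60 FPKM and the OAP2 libraries 2.37, 1.68 and 2.37. PBS alone spanned most of the range of the gene, with counts of 212 to 458 per library. Twist1 was called in 0 of 6 comparisons by edgeR and by no alternative, and its smallest unadjusted p was 0.0857. Its largest difference was Oxa against APAP, at 0.55 ± 0.30 (95% interval -0.09 to 1.19; edgeR adjusted p = 0.226). All 3 OAP2 libraries lay below all 3 Oxa libraries, with a value of -0.42 ± 0.30 (edgeR adjusted p = 0.38).

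Zeb2 (chromosome 2, 44983632 to 45117395, minus strand, 14 transcripts) stood at 1.34, 1.20 and 1.51 FPKM in PBS 1 to 3 and at 1.32, 1.30 and 1.40 in Oxa 1 to 3. The APAP libraries had 1.08, 1.22 and 1.29 FPKM and the OAP2 libraries 0.98, 1.13 and 0.99. OAP2 lay below all PBS and all Oxa libraries and overlapped APAP. Zeb2 was lower in OAP2 than in Oxa, 1.03 ± 0.0839 against 1.34 ± 0.0529 FPKM, by -0.36 ± 0.11 (95% interval -0.61 to -0.12; edgeR adjusted p = 0.0493). That call stood at the threshold and was lost under 17 of 24 alternatives, with an adjusted p of up to 0.223, among them the replicate block (adjusted p = 0.067) and every omission of an Oxa library. OAP2 against PBS gave -0.37 ± 0.11 (-0.61 to -0.12; adjusted p = 0.0779), and -0.44 without PBS 2 (adjusted p = 0.0125). Zeb2os, transcribed from the opposite strand, stayed at or below 0.17 FPKM. Zeb2 is also expressed by macrophages, whose 7 markers summed to 12.1 to 46.1 FPKM in PBS and to 12.3 to 20.6 in the treated groups, mostly from Cd68 and Lyz2. The highest sum was that of PBS 1, with 31.0 FPKM of Lyz2, 1.51 of Adgre1 and 0.44 of Csf1r, each the highest of all libraries. Without PBS 1, Zeb2 stood at -0.34 in both OAP2 against Oxa (adjusted p = 0.0759) and OAP2 against PBS (adjusted p = 0.173), and the part of such cells in its level was not tested.

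Zeb1 and Cdh2 were at the limit of detection. Zeb1 (chromosome 18, 5591860 to 5775467, plus strand) had 126 counts over all libraries, 0 counts in 5 of them and at most 31 in 1. Its counts were 0, 21 and 0 in PBS 1 to 3, 0, 0 and 8 in APAP, 0, 28 and 12 in Oxa and 31, 18 and 8 in OAP2. Counts above 0 were thus spread over all groups. Cdh2 (chromosome 18, 16588877 to 16809246, minus strand) had 7 counts in PBS 2 and 0 in the other 11 libraries. A count of 0 in a library allows up to 3 counts, or at most 0.0468 CPM at these depths, counting error only. Neither reached 1 FPKM in any library, so both were left out by the filter. With no filter on low values, edgeR gave adjusted p-values of 0.586 to 1 for Zeb1 and 0.488 to 1 for Cdh2, so no difference was detectable at this depth.

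**Figure D3:**
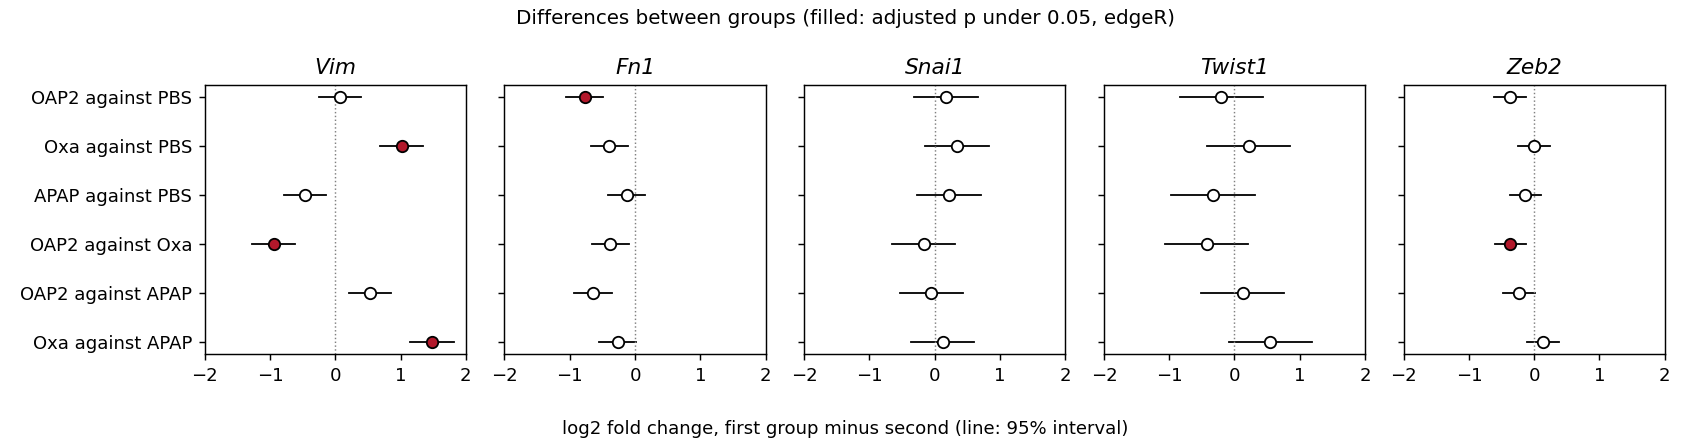
Log2 fold changes of the 5 tested members in the 6 comparisons, first group minus second, with 95% intervals; filled points have an adjusted p under 0.05. Filled points are Vim in the 3 comparisons of Oxa with another group, Fn1 in OAP2 against PBS, and Zeb2 in OAP2 against Oxa.

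Counted by comparison over the 5 tested members, the share of members called is read beside the share of all genes called. In OAP2 against PBS, 1 member was lower and 0 higher, where 3.11% of genes were called lower and 2.14% higher. In Oxa against PBS, 1 was higher and 0 lower, where 5.35% of genes were higher and 4.76% lower. In OAP2 against Oxa, 2 were lower, Vim and Zeb2, and 0 higher, where 6.91% of genes were lower and 6.02% higher. In Oxa against APAP, 1 was higher and 0 lower, where 8.21% of genes were higher and 7.18% lower. With so few members, each of these counts rests on a single gene or a pair of genes.

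APAP against PBS had 0 members called by edgeR, DESeq2 or any other alternative, with 1 at an unadjusted p below 0.05. Over all genes 0.0166% were called there, 0 higher and 0.0166% lower, and 9.16% had an unadjusted p below 0.05. OAP2 against APAP had 0 members called by edgeR, with 2 at an unadjusted p below 0.05, and 2 called by DESeq2. Over all genes 0.474% were called there by edgeR, 0.274% higher and 0.199% lower, and 15.2% had an unadjusted p below 0.05. DESeq2 called 4.2% of all genes there, the share beside which its 2 members are to be read.

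Members whose libraries did not overlap between the groups numbered 2 in OAP2 against PBS, where the share over all genes was 18.7%, and 3 in Oxa against PBS, where it was 29.1%. They numbered 1 in APAP against PBS (15.9%), 4 in OAP2 against Oxa (36.1%), 2 in OAP2 against APAP (25.7%) and 3 in Oxa against APAP (47.8%). The member without separation in OAP2 against Oxa was Snai1. The median member value was -0.38 in OAP2 against Oxa and 0.22 in Oxa against PBS, and the median over all genes lay between -0.013 and 0.0021 in every comparison.

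Counts in the gene lists below are also given without PBS 2, and in that fit more genes of all kinds were called. The share of all genes called rose to 16.4% in OAP2 against PBS, 25.5% in Oxa against PBS, 22.8% in OAP2 against Oxa, 7.61% in OAP2 against APAP and 27.7% in Oxa against APAP, and was 0.0249% in APAP against PBS. List counts without PBS 2 are to be read against these shares. List counts by edgeR on all libraries are to be read against the shares given above for each comparison. DESeq2 called 10.5% of all genes in OAP2 against PBS, 16.8% in Oxa against PBS and 0.806% in APAP against PBS. It called 18% in OAP2 against Oxa, 4.2% in OAP2 against APAP and 21% in Oxa against APAP. List counts by DESeq2 are to be read against these.

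Other mesenchymal and invasion markers were mostly higher in Oxa than in OAP2 or APAP. Of 15 listed genes, 8 were tested and the others, such as the smooth muscle actin gene Acta2, were too low. In OAP2 against Oxa, 5 were called lower, 1 higher and 2 did not pass, with a list median of -0.96. Over all genes, 6.91% were called lower there and 6.02% higher. The receptor tyrosine kinase Axl fell from 130 ± 9.0 to 76.7 ± 11.1 FPKM (-0.76 ± 0.11; edgeR adjusted p = 0.00129). The calcium-binding protein S100a4 was at 27.7, 22.6 and 22.9 FPKM in Oxa 1 to 3 and at 8.02, 4.57 and 10.6 in OAP2 1 to 3 (-1.65 ± 0.29; 0.00284). The matricellular genes Thbs1 (-1.81 ± 0.36; 0.00638) and Sparc (-0.97 ± 0.22; 0.0116) were lower too. The hyaluronan receptor gene Cd44 was the 1 called higher in OAP2 (0.37 ± 0.11; 0.0451, lost under 10 of 24 alternatives), and was at -0.42 in Oxa against PBS (0.0323), where it was the 1 gene of the list called, a call lost under 5. Axl, S100a4, Thbs1 and Sparc kept the call in OAP2 against Oxa under all 24 alternatives. Without PBS 2, Oxa against PBS had 3 of the list higher and 1 lower, in a fit that called 25.5% of all genes.

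Over all genes, 8.21% were called higher and 7.18% lower in Oxa against APAP. Of the same 8 markers, 5 were called higher there and 0 lower, with a median of 1.06. They were S100a4 (1.33 ± 0.28; edgeR adjusted p = 0.00883), the gelatinase Mmp9 (1.88 ± 0.40; 0.00922), Axl (0.49 ± 0.11; 0.0125), Thbs1 (1.53 ± 0.36; 0.013) and Sparc (0.79 ± 0.22; 0.0274). S100a4 and Mmp9 kept these calls under all 24 alternatives, Axl and Thbs1 each lost theirs under 2 and Sparc under 6. In OAP2 against PBS, 3 were called lower and 0 higher, where 3.11% of all genes were called lower and 2.14% higher. The list median there was -0.89. S100a4 fell from 21.3 to 7.72 FPKM (-1.44 ± 0.28; 0.0113), Thbs1 from 72.1 to 22.6 (-1.66 ± 0.36; 0.0178) and Axl from 107 to 76.7 (-0.46 ± 0.11; 0.0317). The control library PBS 2 held 128 FPKM of Thbs1 against 41.6 and 46.6 in PBS 1 and PBS 3, and without it Thbs1 stood at -0.95 (0.00783) and the list median at -0.42. In OAP2 against PBS the call of Axl was lost under 8 alternatives, that of Thbs1 under 4, among them without OAP2 1 and without OAP2 2, and that of S100a4 under 1. In OAP2 against APAP 0 of the 8 were called by edgeR or DESeq2, with 1 at an unadjusted p below 0.05. In APAP against PBS 0 were called by edgeR and 1 by DESeq2, with 6 at an unadjusted p below 0.05 and a median of -0.82, or -0.50 without PBS 2.

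Among 9 tested further regulators of the transition, Sox9 had the clearest differences. Sox9, a transcription factor of progenitor cells, stood at 23.5, 21.1 and 22.9 FPKM in PBS 1 to 3 and at 8.37, 9.39 and 9.05 in OAP2 1 to 3. The Oxa libraries had 15.7, 16.1 and 13.5 FPKM and the APAP libraries 15.2, 17.7 and 18.6. All OAP2 libraries lay below all others. Sox9 fell in OAP2 against PBS by -1.32 ± 0.11 (edgeR adjusted p = 6.49e-05) and was lower in OAP2 than in Oxa (-0.75 ± 0.11; 0.00102) and in APAP (-0.97 ± 0.11; 0.00723, lost without APAP 2). In Oxa against PBS it was at -0.57 ± 0.11 (0.00744).

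The chromatin protein gene Hmga2 fell in both OAP2 (-0.55 ± 0.11; edgeR adjusted p = 0.0104, lost under 2 alternatives) and Oxa (-0.52 ± 0.11; 0.0103) against PBS. The forkhead gene Foxc1 was higher in Oxa than in PBS (0.62 ± 0.13; 0.0102), a call lost under 2 of 24 alternatives. Foxc1 was lower in OAP2 than in Oxa (-0.60 ± 0.13; 0.00909), and was higher in Oxa than in APAP (0.56 ± 0.13; 0.0126), calls lost under 2 and 4. Over all genes, 5.35% were called higher and 4.76% lower in Oxa against PBS. The shares were 2.14% and 3.11% in OAP2 against PBS, and 6.02% and 6.91% in OAP2 against Oxa. By count, the regulator list had 2 called higher and 2 lower of 9 in Oxa against PBS. It had 0 and 3 in OAP2 against PBS, and 0 and 3 in OAP2 against Oxa. The weakest of these calls was lost under 17 of 24 alternatives in OAP2 against PBS (edgeR adjusted p = 0.0425). In OAP2 against Oxa the weakest was lost under 15 (0.0487). The list had 2 higher and 0 lower in Oxa against APAP, where 8.21% and 7.18% of all genes were. It had 0 and 1 in OAP2 against APAP, where 0.274% and 0.199% were. Without PBS 2, the library with blood cell transcripts, the count became 6 higher and 3 lower in Oxa against PBS. In OAP2 against PBS it became 2 higher and 3 lower. In that fit 25.5% and 16.4% of all genes were called in these comparisons. In APAP against PBS 0 were called by edgeR or DESeq2, with 1 at an unadjusted p below 0.05. The list median was -0.32 in OAP2 against Oxa, with negative values for all 9.

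Epithelial genes that the transition represses were called in the opposite direction in OAP2 against Oxa. Of 20 tested, 6 were called higher in OAP2, 0 lower and 14 did not pass, with a median of 0.13. Over all genes, 6.02% were called higher in that comparison and 6.91% lower. The adhesion molecule gene Epcam stood at 103, 90.0 and 93.0 FPKM in Oxa 1 to 3 and at 150, 142 and 152 in OAP2 1 to 3 (0.64 ± 0.12; edgeR adjusted p = 0.00411), with no overlap. The epithelial transcription factor gene Grhl2 (0.40 ± 0.10; 0.0187), the desmosomal linker gene Dsp (0.37 ± 0.09; 0.0219) and the tight junction gene Cldn7 (0.50 ± 0.15; 0.0387) were higher as well. Epcam kept the call under all 24 alternatives, Grhl2 and Dsp lost it without Oxa 2, Oxa 3 or OAP2 2, and Cldn7 lost it under 12. The remaining called genes of the list lost it under 12 and 15. Without PBS 2 the count became 8 higher and 1 lower, where 22.8% of all genes were called. Cdh1, the E-cadherin gene that gives the transition its usual readout, did not pass in edgeR on all libraries in any comparison, with levels of 203 ± 36.3 FPKM in OAP2, 212 ± 18.7 in Oxa, 176 ± 12.4 in APAP and 175 ± 21.5 in PBS. With PBS 2 and OAP2 3 left out it was called higher than in APAP in both OAP2 (0.32, adjusted p = 0.0329) and Oxa (0.24, adjusted p = 0.0326). In Oxa against APAP it was also called with limma quality weights (0.27, adjusted p = 0.0237) and with the 6 libraries alone (0.23, adjusted p = 0.0439).

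In Oxa against APAP, the splicing regulator Esrp1 (-0.62 ± 0.13; edgeR adjusted p = 0.0077), Dsp (-0.42 ± 0.09; 0.0119) and Grhl2 (-0.40 ± 0.10; 0.0173) were lower in Oxa, and 0 of 20 were higher. Esrp1 kept this call under all 24 alternatives, Dsp lost it under 1 and Grhl2 under 5. Over all genes, 7.18% were called lower in Oxa against APAP and 8.21% higher. Without PBS 2 the list count was 5 lower and 1 higher, where 27.7% of all genes were called. In OAP2 against PBS, Krt19 (0.64 ± 0.14; 0.0168) and Epcam (0.54 ± 0.12; 0.0191) rose and 0 fell, and DESeq2 called 7. Krt19 lost this call under 3 alternatives and Epcam under 6, among them without PBS 1, PBS 3, OAP2 1 or OAP2 2. Over all genes, edgeR called 2.14% higher and 3.11% lower in OAP2 against PBS, and DESeq2 called 10.5%. Without PBS 2 the edgeR count became 7 higher and 2 lower, where 16.4% of all genes were called. Oxa against PBS, APAP against PBS and OAP2 against APAP had 0 of the 20 called by edgeR, with 5, 3 and 5 at an unadjusted p below 0.05 and 0, 1 and 3 called by DESeq2. DESeq2 called 16.8%, 0.806% and 4.2% of all genes in these comparisons. Without PBS 2, Oxa against PBS had 3 higher and 3 lower and OAP2 against APAP had 3 higher, where 25.5% and 7.61% of all genes were called.

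**Figure D4:**
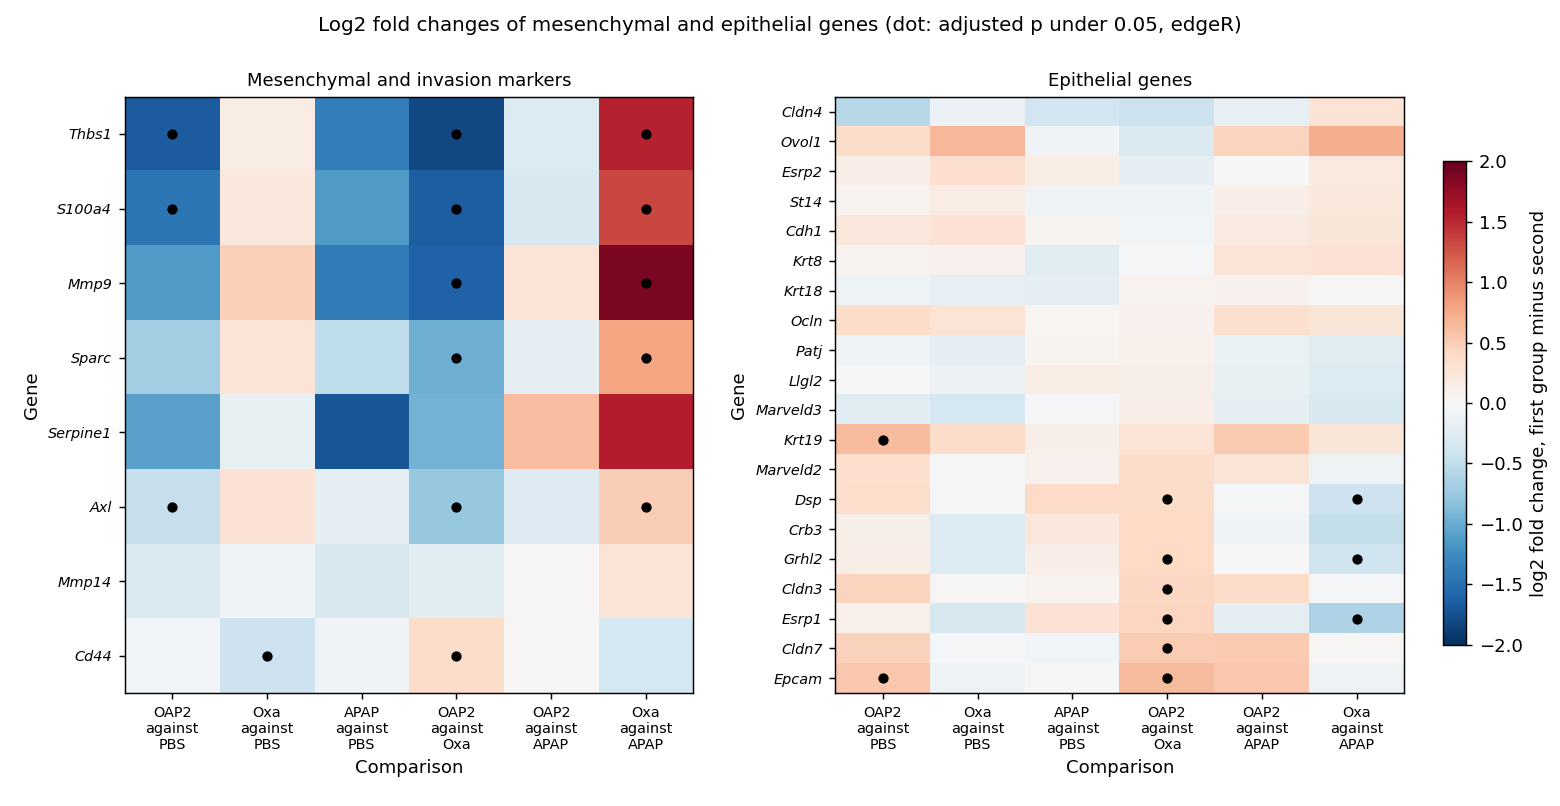
Log2 fold changes, first group minus second, of the 8 tested mesenchymal and invasion markers and the 20 tested epithelial genes in the 6 comparisons; a dot marks an adjusted p under 0.05 in edgeR. In OAP2 against Oxa 5 mesenchymal markers are called lower and 1, Cd44, higher, and 6 epithelial genes are called higher and 0 lower.

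The TGF-beta pathway is a known inducer of the transition. Of its 15 tested genes, 0 rose and 3 fell in OAP2 against PBS, where 3.11% of all genes were called lower, with a list median of -0.18. The activin subunit Inhba fell from 16.55 ± 5.42 to 7.05 ± 1.13 FPKM (-1.22 ± 0.20; edgeR adjusted p = 0.00486), the receptor Tgfbr2 by -0.34 ± 0.08 (0.0314) and the inhibitory Smad7 by -0.46 ± 0.11 (0.0335). The calls of Tgfbr2 and Smad7 were lost under 10 and 12 of 24 alternatives. In OAP2 against Oxa, Inhba (-0.76; edgeR adjusted p = 0.0263) and Tgfbr2 (-0.27; 0.0453) were lower and Tgfbr1 (0.31; 0.0368) higher, calls lost under 6, 18 and 11 alternatives. The ligand Tgfb1 was higher in Oxa than in APAP (0.86 ± 0.19; 0.0107), the 1 of 15 called there, a call lost without Oxa 2. In Oxa against PBS, APAP against PBS and OAP2 against APAP 0 of 15 were called by edgeR, with 4, 2 and 3 at an unadjusted p below 0.05 and 2, 1 and 2 called by DESeq2. Of all genes, DESeq2 called 16.8%, 0.806% and 4.2% in these comparisons. Without PBS 2 the list had 1 higher and 5 lower in OAP2 against PBS, 2 and 1 in Oxa against PBS, and 2 and 4 in OAP2 against Oxa. It then had 1 and 1 in OAP2 against APAP, 3 and 1 in Oxa against APAP, and 0 in APAP against PBS.

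Few fibronectin receptors and relatives of vimentin were tested, and few of them were called. Of 6 tested fibronectin receptor genes, 0 were called by edgeR or DESeq2 in OAP2 against PBS, the comparison in which Fn1 fell. Of all genes, edgeR called 5.25% there, so 0 of 6 lies near that share. The receptors had 1 gene at an unadjusted p below 0.05. Itgb6 was called in Oxa against APAP (1.06; edgeR adjusted p = 0.033, lost under 6 of 24 alternatives). Of 4 tested filaments and linkers related to vimentin, 0 were called by edgeR or DESeq2 in Oxa against PBS, the comparison in which Vim rose. Of all genes, edgeR called 10.1% there, so 0 of 4 lies near that share. The relatives had 0 genes at an unadjusted p below 0.05. Vmac was called in OAP2 against Oxa (0.78; edgeR adjusted p = 0.0367, lost under 7). Leaving out PBS 2, the receptors had 1 higher and 1 lower in Oxa against PBS and in Oxa against APAP, and 1 lower in OAP2 against Oxa.

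Of 5 tested cadherins and catenins, Jup, or plakoglobin, was higher in Oxa than in PBS (0.51; edgeR adjusted p = 0.0244, lost under 6 alternatives) and APAP (0.78; 0.00277), and OAP2 against Oxa gave -0.64 (0.00674). The calls against APAP and OAP2 held under all 24 alternatives. Without PBS 2, 2 of the 5 were higher in Oxa against PBS, 3 in Oxa against APAP and 1 in OAP2 against PBS.

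Co-repressors and turnover factors of the transition factors were called by edgeR only in comparisons of Oxa with another group, where more of all genes were called too. These shares of all genes were 10.1% in Oxa against PBS, 12.9% in OAP2 against Oxa and 15.4% in Oxa against APAP. Of 13 tested, 3 were higher and 1 lower in Oxa against APAP, where 15.4% of all genes were called. The deacetylase Hdac1 (0.49; edgeR adjusted p = 0.0241), the co-repressor scaffold Sin3a (0.32; 0.042) and the ubiquitin ligase subunit Btrc (0.39; 0.0461) were higher and the kinase Gsk3b lower (-0.38; 0.0257), calls lost under 6, 12, 14 and 7 alternatives. In Oxa against PBS, Sin3a (0.50; 0.00854, held under all 24) and Btrc (0.47; 0.0305, lost under 9) were higher. In OAP2 against Oxa, Hdac1 was lower (-0.49; 0.0253, lost under 6) and Gsk3b higher (0.40; 0.0215, lost under 4). Leaving out PBS 2 gave counts of 5 higher and 2 lower in Oxa against APAP, 4 and 0 in Oxa against PBS, and 1 and 6 in OAP2 against Oxa.

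The genes whose log2 CPM followed each member most closely over the 12 libraries were taken as the 3 highest of 9810 named protein-coding genes, as a description only. Vim was followed by Fblim1, a filamin-binding LIM protein (Pearson r = 0.98), Topors (0.98) and Gm2a (0.97). For Fblim1 r was 0.95 within groups, after each group's mean was removed. Within groups Vim varied most in PBS, with an SD of 14.9 FPKM against 1.82 to 4.56 in the others. There PBS 2 stood highest, so the value within groups leans on that library. Fn1 was followed by Klhdc3 (0.94), Plekha1 (0.94) and Scaf11 (0.93), and Zeb2 by Podnl1 (0.94), Bcl2l1 (0.93) and Masp1 (0.92). Snai1 was followed by Vapa (0.90), Tmem158 (0.87) and Rnf26 (0.87), and Twist1 by Rpain (0.91), Cep19 (0.87) and Mtmr14 (0.87). Among the members themselves the highest r was 0.66, between Fn1 and Zeb2, and Vim and Fn1 had -0.27. Libraries of 1 group share their treatment, so these values are not independent.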

How the data were processed

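The analysed table holds 12 libraries and was deposited with FPKM and a count per gene. Per the file headers, its FPKM are per kilobase of transcript and scaled to library size. The deposited counts are estimated counts, whole numbers not scaled between libraries. Tools named in the submitters' processing notes, without roles, are StringTie 2.1.6, HISAT2 2.2.1, cutadapt 1.9, edgeR and DESeq2. The notes name mm9, but 87.9% of 29864 matched genes have the GRCm38 positions of GENCODE M21, the build used here. Columns named CON were read as the PBS libraries, the group without a drug, by inference. Neither the strand setting nor the treatment of multiply mapped reads is stated there.

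A gene entered the tests when its FPKM reached 1 in 3 or more libraries (12036 genes). After TMM scaling, edgeR 4.0.16 under R 4.3.3 fitted 1 mean per group over all 12 libraries, and the quasi-likelihood test was 2-sided. Adjusted p-values are Benjamini-Hochberg over all genes tested, called under 0.05. The SE was obtained from the fold change and F. The fit was tested on simulated data. The 24 alternatives changed scaling, filter, tool (DESeq2 1.42.0, limma 3.58.1), replicate block and libraries. All members are described, and from each gene list up to 4 called genes with the smallest p in a comparison; Cd44 in OAP2 against Oxa and Sparc in Oxa against APAP were added after their values were seen. A called gene of the regulator list is counted but not reported here. Members and lists were chosen with earlier results of these data known. Over 18 pairs of same-numbered libraries, deviations from the group mean correlated between -0.15 and 0.16. Differently numbered pairs of libraries from different groups lay between -0.24 and 0.23, so no pairing by number was detected. With 3 libraries per group, a weak pairing could have gone undetected.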

Additional observations from a re-analysis of the deposited data

How the results depend on the processing

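Calls of Vim in the 3 comparisons of Oxa with another group held under all 24 alternatives, and Fn1 in OAP2 against PBS under 23. Called members numbered 1 in OAP2 against PBS, 1 in Oxa against PBS, 0 in APAP against PBS, 2 in OAP2 against Oxa, 0 in OAP2 against APAP and 1 in Oxa against APAP. In OAP2 against PBS the number was 2 with DESeq2, 3 with quality weights, 0 with only the 6 libraries compared, 3 with PBS 2 and OAP2 3 left out, and 1 to 2 leaving out each library. In Oxa against PBS it was 2 with DESeq2, 2 with quality weights, 2 with PBS 2 and OAP2 3 left out, and 1 to 2 leaving out each library. In OAP2 against Oxa it was 1 with RLE or upper-quartile scaling, 1 under each of the other filters, 1 with limma on log2(FPKM + 1) or log2(FPKM + 0.1), 1 with the replicate block, 3 with DESeq2, with quality weights or with PBS 2 and OAP2 3 left out, and 1 to 3 leaving out each library. In OAP2 against APAP it was 2 with DESeq2, 2 with quality weights, 1 with only the 6 libraries compared, 2 with PBS 2 and OAP2 3 left out, and 0 to 2 leaving out each library. In Oxa against APAP it was 2 with quality weights, 2 with only the 6 libraries compared and 2 with PBS 2 and OAP2 3 left out. The share of all genes called moved too. With DESeq2 it was 10.5% in OAP2 against PBS, 16.8% in Oxa against PBS, 18% in OAP2 against Oxa and 4.2% in OAP2 against APAP. With quality weights it was 23.6, 36.5, 28.9 and 13% in the same order, and 39.2% in Oxa against APAP. With PBS 2 and OAP2 3 left out it was 23.6, 35.4, 28.5, 11.9 and 37.1% in that order. With only the 6 libraries compared it was 0.316% in OAP2 against PBS, 2.38% in OAP2 against APAP and 36.6% in Oxa against APAP. The causes were not tested. The replicate block ended the call of Zeb2 in OAP2 against Oxa (-0.36, adjusted p = 0.067 in edgeR) and changed no other member's call.

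Member values that changed sign under an alternative were uncalled there. Leaving out each library gave ranges of -0.081 to 0.31 for Vim in OAP2 against PBS and -0.080 to 0.067 for Zeb2 in Oxa against PBS. For Snai1 they were -0.053 to 0.36 in OAP2 against PBS, -0.026 to 0.34 in APAP against PBS, -0.39 to 0.021 in OAP2 against Oxa and -0.27 to 0.20 in OAP2 against APAP. For Twist1 they were -0.44 to 0.12 in OAP2 against PBS, -0.014 to 0.55 in Oxa against PBS and -0.027 to 0.38 in OAP2 against APAP. Snai1 in OAP2 against PBS was -0.093 with quality weights and -0.070 without PBS 2 and OAP2 3, Twist1 in Oxa against PBS was -0.014 without both, and Zeb2 in Oxa against PBS was 0.010 with no filter. Over all genes, the number called ranged over the alternatives from 38 to 2838 in OAP2 against PBS, 477 to 4394 in Oxa against PBS, 0 to 105 in APAP against PBS, 688 to 3474 in OAP2 against Oxa, 0 to 1567 in OAP2 against APAP and 840 to 4719 in Oxa against APAP.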
